A study of Mus musculus with 2 samples.

Results

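Hematopoietic stem and progenitor cells (HSPC) of the mouse fetal liver were examined as the 421 of 10537 cells that the deposited cell table names HPSC, its spelling of HSPC. The table names 9 cell types, and these cells form 1 deposited cluster. A coarser deposited grouping joins them with the granulocytes, monocytes and Kupffer cells in a cluster of 822 cells. The cells came from 1 liver of a wild-type C57BL/6 embryo (C57BL/6J in the methods) at E12.5, counted in days of embryonic development. They were processed as 2 technical replicate libraries by droplet-based single-cell RNA sequencing, which counts each captured RNA molecule by a unique molecular identifier (UMI). No mutant or treated sample belongs to the series, so the comparisons are with the other cell types of the same liver. HSPC numbered 213 cells in library 1 (3.89% of the kept cells, exact binomial 95% confidence interval 3.39 to 4.43%) and 208 in library 2 (4.11%, 3.58 to 4.70%). They held 3449066 and 3124711 UMIs, with medians of 16053 and 14956 UMIs and 3777 and 3492.5 genes per cell. Among all kept cells, 31 barcodes occurred in both libraries. One of these belonged to an HSPC in library 1, and none to an HSPC in library 2.

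In the fetal liver, stem and progenitor cells seeded from earlier embryonic sites multiply and give rise to erythroid, megakaryocyte, granulocyte, monocyte and lymphoid cells. Stem cells are characterised by transcription factors such as Hlf, Meis1 and the Hoxa genes, and by the receptor for stem cell factor (Kit). As progenitors become restricted, they lower these genes and raise those of 1 lineage, and RNA of several lineages can be found in a single progenitor before this choice.

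Levels are given as CPM, the UMIs of a gene summed over the cells of a type, per 1000000 UMIs of that type. Each captured molecule is counted once, so the levels were not divided by gene length. The exact Poisson 95% confidence intervals of levels, and the intervals of ratios from the same summed counts, cover counting error only. They leave out the spread between cells, so an interval that includes or leaves out 1 is not a test. With 1 liver there is no animal replicate, so no test was made, and differences are described by their size in each of the 2 libraries. Because the authors defined the cell types by clustering the same genes, a contrast between types is a description. The other types were erythroid-committed progenitors (Ery), erythroblasts (Eryb), EryP, in which the embryonic globin gene Hbb-y was the most abundant globin gene, megakaryocytes (Mk), granulocytes (G), monocytes and Kupffer cells (Mo/KC), hepatoblasts (Hepa) and endothelial cells (EC).

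The 5 genes that mark this population were all present in it, and they differed in how widely they were shared. Cd34, a surface sialomucin of progenitors and endothelium, had a level of 384 CPM in library 1 and 370 in library 2 (377 CPM in both together, 363 to 393). Its level was 292 CPM in Mo/KC, 159 in G and 141 in EC, but 3.81 CPM in Ery and 6.17 in Mk. Myb, a transcription factor required for definitive hematopoiesis, had 119 and 108 CPM in HSPC. This was not above its level in G (128 CPM, 117 to 140), and the ratio of HSPC to G was 0.892 (0.794 to 1.002). Runx1, which drives the emergence of blood cells from endothelium, had 102 and 80.6 CPM in HSPC and was at the same level in Mk (ratio 1.004, 0.843 to 1.2). Kit had 53.6 and 47.0 CPM, 2.62 times the level in Ery (2.29 to 2.99) and 2.20 times that in G (1.73 to 2.82). In the earliest deposited subcluster of Ery, Kit was nearer, at 32.7 CPM (30.2 to 35.4). Hlf, a transcription factor of stem cells, had 42.3 and 40.6 CPM, and its next highest level was 11.7 CPM in Hepa. In EC and EryP, no Hlf UMI was counted.

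**Figure D1:**
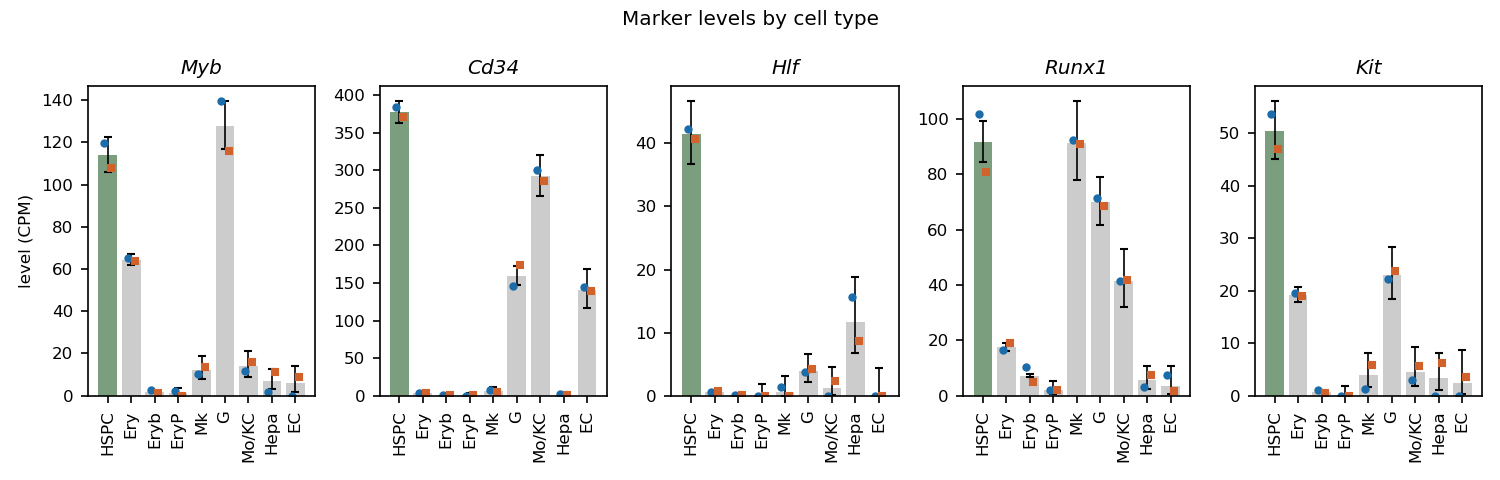
Levels (CPM, linear axis) of the 5 marker genes in the 9 cell types. Bars are both libraries summed, with exact Poisson 95% intervals, circles are library 1 and squares library 2. Hlf (41.5 CPM against at most 11.7) and Kit (50.5 against at most 23.0) were above each other type taken as a whole. Myb was as high in G and Runx1 as high in Mk. In the earliest erythroid subcluster, not shown apart, Kit had 32.7 CPM.

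Because cells differ in depth, the share of cells in which a gene was seen is given as that expected once every cell is thinned to 3600 UMIs. This left 419 HSPC. A Cd34 UMI was then expected in 70.6% of HSPC (66.0 to 75.0%) against 1.68% of Ery, which have almost no Cd34 and a higher median depth (22845.5 against 15462 UMIs). The shares were 32.9% for Myb, 28.4% for Runx1, 16.3% for Kit and 14.6% for Hlf. In Ery, the share for Hlf was 0.223%. Without thinning, 399 of 421 HSPC (94.8%) had a Cd34 UMI, 304 (72.2%) a Myb UMI, 206 (48.9%) a Kit UMI and 153 (36.3%) an Hlf UMI.

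Beyond the markers, 39 of the 5093 genes with at least 20 CPM in HSPC (0.766%) had at least 2 times the level of every other cell type in each library. Because genes at 0 in a type were given a floor of 3 counts, the smallest types limit these ratios. EC held 262042 UMIs in library 1, where the floor was 11.4 CPM, and a floor set the ratio of 11 of the first 20 genes in library 1 and of 6 in library 2. Ranked by the lower of the 2 library ratios, the first gene was Cd27, a receptor of the tumor necrosis factor receptor family, with 104 and 109 CPM in HSPC and 4.75 CPM in G, the next type. The second was Flt3, the receptor for FLT3 ligand on multipotent and lymphoid-primed progenitors, with 76.3 and 69.1 CPM in HSPC and 4.48 CPM in Mo/KC. Hoxa9 had 71.9 and 79.7 CPM, and Hoxa7, its neighbour in the HoxA cluster, 51.3 and 71.0 CPM. In no other type did either exceed 1.68 CPM. Hoxa9 is on chromosome 6 (GRCm38, 52223100 to 52231089) and Hoxa7 at 52214491 to 52221854, both on the minus strand.

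The other genes among the first 20 had various known roles, and no group of them was tested. Among them were Sox4 (238 and 226 CPM against 50.7 in EC), Satb1 (64.7 and 56.6 against 12.9 in G), Nr4a2 (31.6 and 27.8), Hlf, the DNA methyltransferase gene Dnmt3b (173 and 156 against 43.7 in Mk) and Hmga2 (416 and 417 against 140 in EC). Hmga2 encodes a chromatin protein of fetal stem cells. Also among the first 20 were Ptprcap, a CD45-associated protein (397 and 413 CPM against 111 in G), Gpr171, the lectin Clec4e, the tetraspanin Tspan13 and the small GTPase gene Gem. Mzb1, known from marginal zone B cells and plasma cells, had 61.2 and 62.1 CPM against 1.85 in G. Gcnt2, Shisa8, Serpina3g and Fam181b completed the first 20, with levels between 28.4 and 49.4 CPM. Further down the list were Runx3, Tox, Il21r, the neural-type MYC gene Mycn, and the immediate early genes Nr4a1, Dusp2 and Dusp5.

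The number of leading genes depended on the sparse types. When the globin genes were left out of the totals, 25 genes were called, all among the 39, and 15 of them among the first 20. A stricter cell filter (1000 genes, under 10% mitochondrial UMIs) left 24 EryP cells, raised their floor to 24.9 CPM in library 1, and kept 20 genes, all among the 39 and 12 among the first 20. Cd27, Flt3, Hoxa9, Mzb1, Hoxa7, Gpr171, Sox4, Ptprcap, Satb1, Dnmt3b, Hmga2 and Tspan13 were called under both, and Hlf only when the globin genes were left out.

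**Figure D2:**
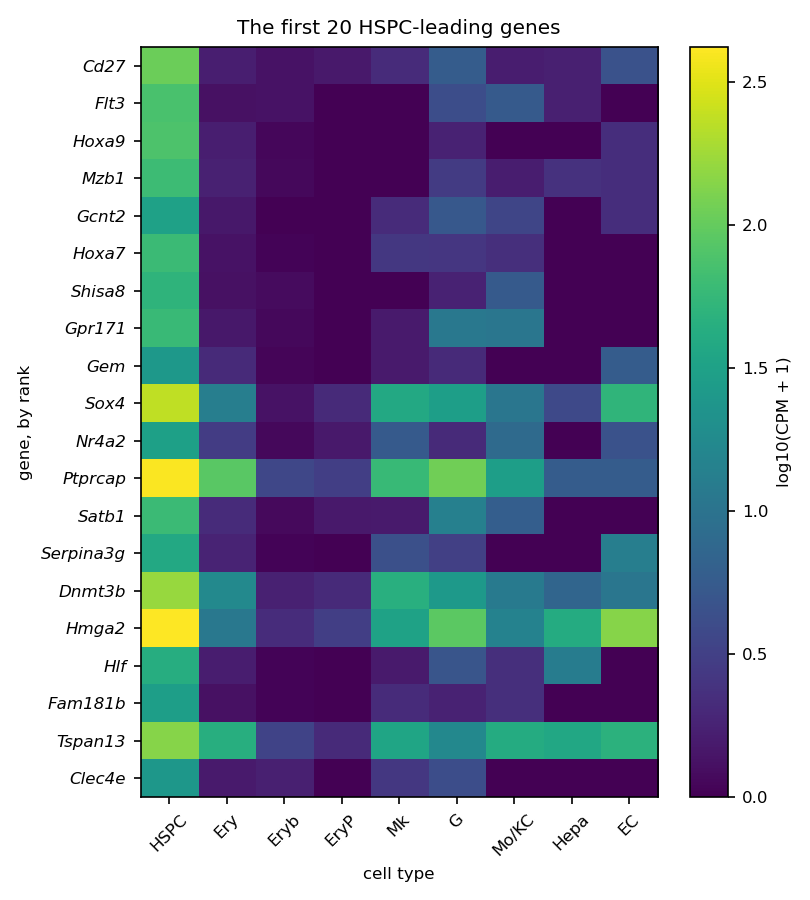
Levels of the first 20 HSPC-leading genes (rows, by rank) in the 9 cell types (columns), as log10(CPM + 1) of both libraries summed. The HSPC column is the brightest in each row, and Sox4, Ptprcap, Hmga2 and Tspan13 are also seen in other types, at up to 50.7, 111, 140 and 47.1 CPM.

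The promoters of the first 2 leading genes and of Hlf, the marker furthest above its next highest type, are shown as the 250 bases upstream of the RefSeq start (GRCm38.p6). All are on the minus strand: Cd27 at chr6:125237028-125237277, Flt3 at chr5:147400490-147400739 and Hlf at chr11:90390918-90391167. Letters in capitals match AACNG, the core of a MYB site, on either strand (written CNGTT on the other), or TGACGTCA, a palindromic cyclic AMP response element.
Cd27 promoter: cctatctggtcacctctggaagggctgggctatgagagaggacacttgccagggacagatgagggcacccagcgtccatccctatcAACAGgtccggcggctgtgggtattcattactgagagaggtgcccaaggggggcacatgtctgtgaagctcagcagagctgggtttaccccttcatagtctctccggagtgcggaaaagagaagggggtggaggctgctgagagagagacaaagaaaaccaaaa
Flt3 promoter: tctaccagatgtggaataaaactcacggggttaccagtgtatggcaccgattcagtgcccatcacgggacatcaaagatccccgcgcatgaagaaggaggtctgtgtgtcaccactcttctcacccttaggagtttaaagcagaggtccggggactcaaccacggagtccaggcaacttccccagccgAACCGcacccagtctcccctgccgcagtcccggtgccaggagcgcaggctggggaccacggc
Hlf promoter: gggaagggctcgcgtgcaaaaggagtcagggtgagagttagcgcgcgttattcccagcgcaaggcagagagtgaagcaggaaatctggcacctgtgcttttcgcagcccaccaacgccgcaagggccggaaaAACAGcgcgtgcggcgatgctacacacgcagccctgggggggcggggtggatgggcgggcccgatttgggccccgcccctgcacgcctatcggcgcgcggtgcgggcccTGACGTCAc
The MYB core was matched once in each of the 3, and it is found in 74.2% of the 32851 RefSeq promoter windows of this length. TGACGTCA occurred only in Hlf, and occurs in 1.55% of all windows. The RUNX letters TGTGGT, searched on both strands and held by 14.0% of all windows, were not found in these 3. Neither were the letters AGATAA of a GATA site, searched likewise and held by 9.99%. A match describes the letters, and no binding was measured.

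Stem cell transcription factors were described next, from a list of 28 genes. Of these, 20 reached 20 CPM in HSPC, and 12 of the 28 had their highest level there. Over all 17680 genes with a UMI in any kept cell, the share highest in HSPC was 13.9%. Leading genes numbered 5 (Hlf, Hoxa7, Hoxa9, Mycn and Sox4), beside 0.766% of the 5093 genes at 20 CPM or more in HSPC. Of the 20, 9 had their highest level in HSPC, beside 828 (16.3%) of all 5093 genes at 20 CPM or more. The most abundant was Lmo2, part of the TAL1 complex (354 and 288 CPM), but its level was higher in Ery (382 CPM) and Eryb (420 CPM). Hhex had 149 and 144 CPM, Ikzf1 102 and 95, Meis1 58.6 and 52.2, Fli1 57.4 and 42.6, Ikzf2 56.8 and 52.8, and Gata2 42.3 and 34.6. Gata2, Meis1 and Fli1 were higher in Mk, at 67.8, 111 and 166 CPM. Mycn was counted with 112 and 102 CPM in HSPC, 43.2 CPM in Mk and a single UMI in all G.

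Not all stem cell factors were abundant. Mecom, for example, had 6.09 and 8.0 CPM, Hoxb4 4.35 and 2.24, and Prdm16 4.93 and 5.44. Genes of surface proteins used to isolate stem cells were also at low levels, with 8.70 and 9.28 CPM for Ly6a (SCA-1), 7.25 and 16.0 for Procr (EPCR) and 1.74 and 1.28 for Slamf1 (CD150). Free RNA, measured in barcodes with 1 to 50 UMIs, contained Ly6a at 15.5 CPM, above its level in HSPC. By contrast, Cd48, which marks progenitors beyond the stem cell stage, had 192 and 140 CPM, Cd93 63.2 and 57.9, and Ptprc (CD45) 53.6 and 51.5. Of the 16 cytokine receptors listed, 8 reached 20 CPM. Among them were Ifngr1 (105 and 90.9 CPM), Flt3, Kit, Il2rg, Csf3r (34.5 and 30.4), Csf1r (24.1 and 20.2) and Csf2ra. The erythropoietin receptor gene Epor was at 8.99 and 8.0 CPM, compared with 153 CPM in Ery and 108 CPM in free RNA. Without the 45 HSPC in which adult globin RNA exceeded 2% of UMIs, it was at 5.06 and 3.98 CPM.

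Of the fetal programme, 6 of 7 genes reached 20 CPM over both libraries, Hmga1 only through library 1 (420 and 12.8 CPM). Besides Hmga2, the RNA-binding protein genes Igf2bp1 (75.4 and 64.3 CPM), Igf2bp3 (70.5 and 73.9) and Igf2bp2 (43.2 and 37.8) and the transcription factor gene Arid3a (62.3 and 61.4) were detected in both libraries. Lin28b, a regulator of fetal-type hematopoiesis, had 9.28 and 10.2 CPM. Igf2bp1 and Igf2bp3 were not particular to HSPC, since EC (85.7 CPM) and Mo/KC (88.9 CPM), respectively, were higher.

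Compared with Ery, the erythroid-committed progenitors, 823 of 5521 genes with at least 20 CPM in either type were at least 2-fold higher in HSPC in both libraries (14.9%) and 382 were at least 2-fold lower (6.92%). Of the 11 measured erythroid genes, 6 reached 20 CPM in HSPC, and these 6 were at least 2-fold lower there. The other 5 entered only through their level in Ery, so their direction was fixed by the filter. The transcription factor gene Klf1 had 34.8 and 34.2 CPM in HSPC and 543 CPM in Ery, and Gata1 12.8 and 14.1 against 179 CPM. Without the 45 globin-rich HSPC, Klf1 was at 18.3 and 14.5 CPM, and it, Rhd and Tfrc no longer reached 20 CPM. Among genes at 50 CPM or more in Ery, those with the lowest ratio of HSPC to Ery were Prss50, Sphk1, Tmem56, Gm15915, Atp1b2, the red cell pyruvate kinase gene Pklr, Tnfaip2, Cited4, the carbonic anhydrase gene Car1, and Epor. Prss50 had 1.45 and 2.24 CPM in HSPC and 79.0 in each library of Ery, a 54.5- and 35.3-fold difference, and 1.26 and 0.723 CPM without the globin-rich cells.

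In the other direction, the 10 genes with the highest ratio were Ifi203, Mndal, Flt3, Ccl9, Hoxa7, Lsp1, Ccl3, Cd27, Emb and Hoxa9. Flt3 differed 484- and 155-fold, with 11 UMIs in all 1750 Ery. Ifi203 and Mndal are members of the interferon-inducible p200 family, whose similar sequences can share reads. Their annotated positions overlap on the minus strand of chromosome 1. Of the 28 stem cell factors, 20 were tested against Ery. Of these, 13 were higher in HSPC and 3 lower (Tal1, Gfi1b and Mllt3), beside 14.9% and 6.92% of all tested genes. Their median log2 ratio was 2.72, beside -0.01 over all tested genes. The 13 higher factors were below 20 CPM in Ery and entered only through HSPC, so this median was largely set by the filter. Of the 7 at 20 CPM in both types none was higher. All 8 early granulocyte-monocyte genes in the comparison, and 11 of 13 progenitor surface genes, likewise entered only through HSPC, so their direction was largely set by the filter. When the earliest deposited erythroid subcluster (Ery 1, 734 cells) replaced Ery, 689 genes were higher and 335 lower. In these cells, Myb (104 CPM) and Kit (32.7 CPM) were nearer to the HSPC levels than the means of all Ery (64.4 and 19.3 CPM), and Cd34 (6.21 CPM) and Flt3 (0.418 CPM) stayed low.

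Compared with G, 265 of 5532 genes were higher in HSPC (4.79%) and 351 lower (6.34%). This balance depended on the settings, with 694 higher and 548 lower at a minimum of 5 CPM, and 460 and 466 in library 1 alone. The 10 lowest ratios of HSPC to G were those of Lcn2, Ngp, Camp, Stfa3, Stfa2l1, S100a9, Gm5483, S100a8, Ltf and Fcnb. Ngp had 9.86 and 6.72 CPM in HSPC and 10531 and 6790 CPM in G. Its level in HSPC was below that in free RNA (240 CPM). Stfa3, Stfa2l1 and Gm5483 are similar copies of the stefin A family and could share reads. Among the 10 highest ratios were those of Mycn, Gimap5, Gimap6, Hoxa9, Ifi203, Hoxa7, Cd27, Flt3 and Cnrip1. Gimap6, a GTPase of the immunity-associated family, had 196 and 210 CPM in HSPC, 3.70 CPM in G and 239 CPM in EC.

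Genes of the granulocyte-monocyte lineage ranged widely in level within HSPC. Mpo, the myeloperoxidase of azurophil granules, had 740 and 725 CPM in HSPC, against 4255 CPM in G. Prtn3, a protease of these granules, had 531 and 588 CPM and 2608 CPM in G. The transcription factor gene Spi1 (PU.1) had 320 and 318 CPM. Irf8 had 82.1 and 71.4 CPM, above its level in G (54.7 CPM) but at least 2-fold below that in Mo/KC. In between were Lyz2 (140 and 127 CPM, below the 571 CPM of free RNA), Csf3r (34.5 and 30.4), Cebpa (26.1 and 21.1) and Ctsg (15.9 and 31.4). Elane, another protease of the same granules, had 2.61 and 2.88 CPM in HSPC, and 1131 CPM in G. Cebpe (2.61 and 1.60 CPM) and Ms4a3 (2.90 and 4.80 CPM), genes of promyelocytes, were similarly low, and free RNA held more of each (42.2, 13.0 and 17.3 CPM). Of the 12 listed genes, 8 reached 20 CPM in HSPC. Of these 8, none was 2-fold higher than in G and 5 were lower, beside 4.79% higher and 6.34% lower of all 5532 genes compared. The other 4 entered only through G. Against Mo/KC, 3 of the 8 were at least 2-fold lower in HSPC (Spi1, Irf8 and Lyz2), beside 10.0% of all 5726 genes compared. Ctsg was higher in HSPC than in Mo/KC and entered only through HSPC. The late granule genes summed to 69.6 and 51.2 CPM in HSPC, led by S100a9 (23.0 CPM), below the 2034 CPM of free RNA, and Ly6g was at 0.

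Megakaryocyte genes were sparse in HSPC except for a few. Compared with Mk, 415 of 5791 genes were higher (7.17%) and 573 lower (9.89%). Of the 12 megakaryocyte genes, 4 reached 20 CPM in HSPC and were all lower there, and the other 8 entered only through Mk. Cd9 (50.7 and 54.7 CPM), Plek (40.01 and 33.9) and Gp9 (23.8 and 19.8) were among those that reached 20 CPM. The platelet factor gene Pf4 had 6.67 and 5.76 CPM against 10783 CPM in Mk and 207 CPM in free RNA, Itga2b (CD41) had 6.38 and 8.64 against 772 CPM, and no Gp6 UMI was counted. The megakaryocyte list summed to 215 and 195 CPM, below free RNA (421 CPM).

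Compared with Mo/KC, 363 of 5726 genes were higher in HSPC (6.34%) and 573 lower (10.0%). In library 1 alone, 721 were higher and 791 lower. Of the 20 stem cell factors tested, 11 were higher and none lower, but 13 of the 20 entered only through HSPC, and of the 7 at 20 CPM in both types none was higher. Macrophage genes were nearly absent. None reached 20 CPM in HSPC, with a sum of 20.6 and 26.2 CPM in HSPC led by Cd68 (13.2 CPM), and no UMI of C1qa, Mrc1, Timd4 or Vsig4. Lymphoid genes at this stage were few. Ltb, encoding lymphotoxin beta, had 69.0 and 74.9 CPM, Cd79b 48.7 and 63.7, and Notch1 35.1 and 32.3. Il7r, the interleukin 7 receptor, had 14.5 and 10.2 CPM and Rag2, of the recombinase, 8.12 and 11.2, each below 1 CPM in every other type. Of the 15 listed genes, 9 had their highest level in HSPC, beside 13.9% of the 17680 genes with a UMI in any kept cell. However, only 3 of the 15 (Ltb, Cd79b and Notch1) reached 20 CPM there, and Dntt and Cd3e were at 0. Of these 3, only 1 had its highest level in HSPC, beside 16.3% of all genes at 20 CPM or more. Ebf1 (5.51 and 16.3 CPM), Cd79a (0.580 and 5.44) and Tcf7 (14.8 and 4.80) differed more than 2-fold between the libraries. Of the mast cell and basophil genes, Cpa3 had 25.2 and 27.2 CPM and Hdc 11.3 and 12.2, both higher in G, and 4 of 8 were at 0. The list summed to 37.1 and 40.3 CPM in HSPC and to 108 and 10.2 CPM in free RNA of libraries 1 and 2.

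Compared with EC, 517 of 6154 genes were higher in HSPC (8.40%) and 923 lower (15.0%). In library 1 alone, 940 were higher and 1284 lower. Of the 15 endothelial genes listed, 5 reached 20 CPM in HSPC. Of these 5, none was at least 2-fold higher there than in EC and 4 were lower. Another 9 entered only through EC, so their direction was fixed by the filter. Egfl7, which encodes a secreted vascular protein, had 412 and 416 CPM in HSPC and 714 CPM in EC, and Eng, the co-receptor endoglin, had 43.5 and 41.9 against 580 CPM. Pecam1 (29.9 and 24.6 CPM), Emcn (20.6 and 21.4) and Esam (17.7 and 22.7) were detected as well, each at least 2-fold lower than in EC. The defining endothelial genes were near 0, with 0.580 and 1.60 CPM for Cdh5, 1.45 and 1.28 for Kdr, and 0.290 and 0.640 for Cldn5. No Sox7 UMI was counted. The hepatoblast list summed to 53.1 CPM, led by Trf (23.9 CPM), with 4.41 CPM of Alb against 10557 CPM in Hepa, and the mesenchymal list to 3.65 CPM.

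**Figure D3:**
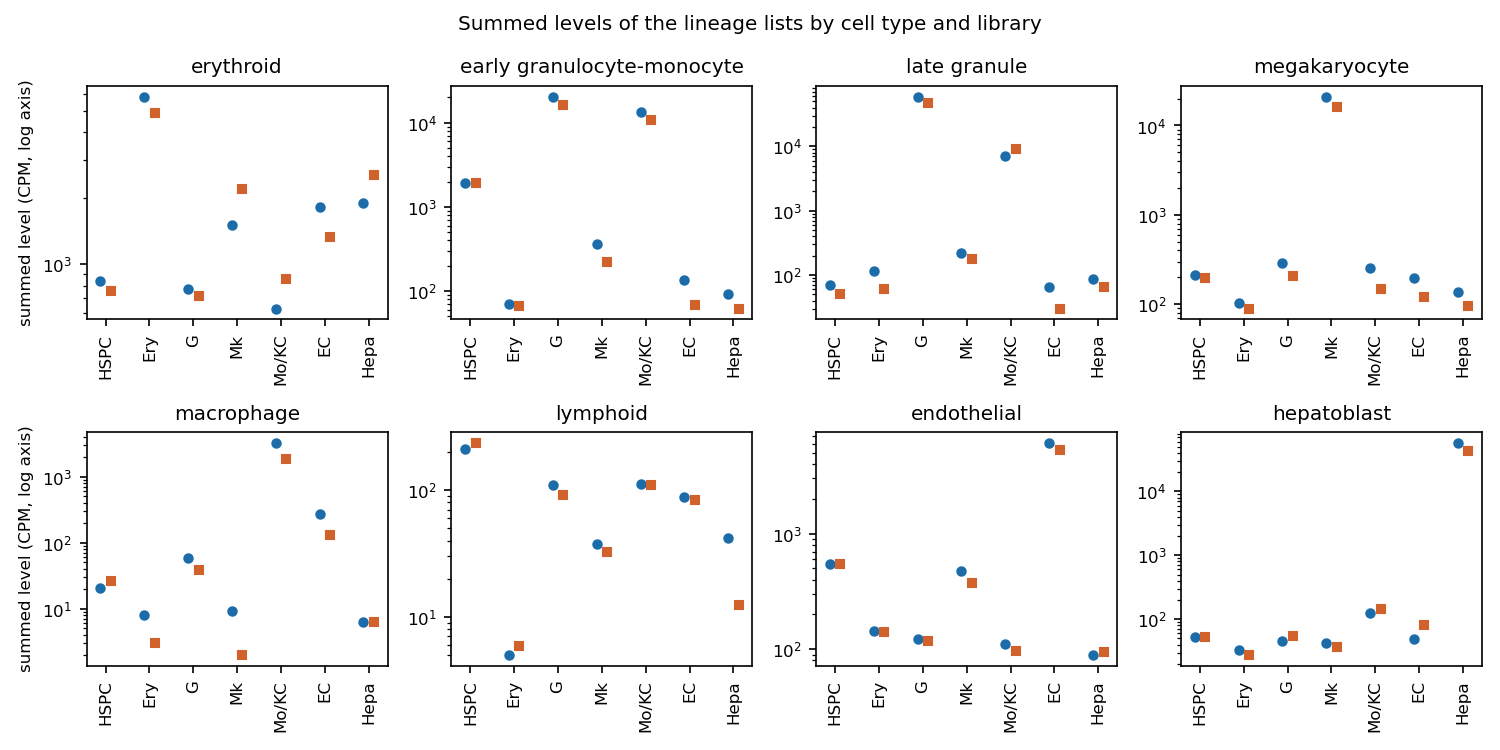
Summed levels (CPM, log axis) of 8 gene lists in HSPC and 6 other types, with library 1 as circles and library 2 as squares. In HSPC the early granulocyte-monocyte list stood at 1898 and 1921 CPM and the late granule list at 69.6 and 51.2. The lymphoid list was highest in HSPC (213 and 235 CPM).

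Globin RNA differed between the libraries. The 7 globin genes summed to 15907 CPM in HSPC of library 1 and 29435 CPM in library 2. Adult globin RNA made up a median of 0.728% and 0.885% of the UMIs of a cell, but more than 2% in 15 and 30 cells. In these 45 cells, the median was 12.8%. Without them, the sums were 7610 and 9078 CPM. In free RNA, globin genes summed to 208633 and 393302 CPM. The part of doublets in these cells was not tested. Leaving out all non-erythroid cells with more than 2% adult globin RNA, an alternative chosen after the data had been seen, gave 35 leading genes, 32 of them among the 39 (without Mycn, Nr4a1, Gem, Clec4e, Pglyrp2, Gm5111 and Fam60a), and 267 genes higher and 362 lower than in G.

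Proliferation genes summed to less in HSPC than in Ery, in both libraries. The 10 S phase genes summed to 1568 and 1524 CPM in HSPC, 2542 and 2272 in Ery and 1700 and 1588 in G. The 10 genes of G2 and mitosis summed to 1548 and 1411 CPM, 2370 and 2211 in Ery and 1672 and 1797 in G. Against Ery, 3 of these 10 (Ccnb1, Mki67 and Plk1) and, of the S phase genes, Rrm2 were at least 2-fold lower in HSPC in both libraries, beside 6.92% of all genes. The 1 of 10 S phase genes is near that share. The cell cycle inhibitor gene Cdkn1c, linked to stem cell quiescence, had 37.4 and 37.1 CPM, against 2.59 in Ery and 1.58 in G, but 409 in Mk and 740 in Hepa. Of the homing and adhesion genes, Selplg had 106 and 95 CPM, Itga4 73.6 and 80.0, and the chemokine receptor gene Cxcr4 3.77 and 6.08.

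HSPC also varied among themselves. In each library, the cells were divided into 3 equal groups by the share of their UMIs from a gene list, and genes outside that list were compared between the lower and the upper group (141 and 140 cells). Such groups are ranges of a score, not cell types, and the lists have few UMIs per cell. By the early granulocyte-monocyte list, every cell had at least 1 UMI, and 84 cells lay within 10% of a dividing value. In the upper group Hlf was lower (57.3 against 22.9 CPM in library 1, 55.8 against 24.7 in library 2, ratio 0.420, 0.299 to 0.584). Lower in the same group were Hoxa9 (98.1 to 43.5 CPM), Mycn (140 to 57.6), Mzb1 (129 to 20.7), Ltb (131 to 31.2), Il7r (20.6 to 3.96) and Flt3 (98.1 to 52.8). Ccl9 was higher, from 18.8 to 287 CPM in library 1 and from 24.5 to 294 in library 2. Higher too were Hmga2 (293 to 525 CPM), Fcgr3 (22.9 to 69.9), Cpa3 (14.0 to 43.1) and Cd34 (318 to 424). Of the stem cell factors, Myb (93.9 to 130 CPM) and Runx1 (79.5 to 108) were also higher. Kit was at 45.8 and 52.8 CPM (ratio 1.15, 0.875 to 1.52). Of the 45 cells rich in globin RNA, 23 fell in the lower and 10 in the upper group.

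By the lymphoid list, a division chosen after the data had been seen, several genes outside it differed. Here 69 cells had no UMI of the list. From the lower to the upper group, Mzb1 was 18.9 and 152 CPM, Ccl3 50.6 and 172, Ccl4 33.6 and 125, Flt3 39.1 and 114, and Hoxa7 38.6 and 88.7. Mpo was 955 and 392 CPM, Cebpa 35.9 and 6.82, Cpa3 34.5 and 9.26, and Gata2 54.3 and 24.9. Myeloid genes were not all lower in the upper group. Prtn3 (ratio of upper to lower 0.480), Ctsg (0.116), Csf3r (0.479) and Fcgr3 (0.554) had intervals below 1, whereas the interval included 1 for ratios of 0.959 for Spi1 (0.860 to 1.07), 0.938 for Lyz2 (0.789 to 1.11), 0.920 for Irf8 (0.732 to 1.16) and 1.23 for Csf1r (0.804 to 1.88). By the megakaryocyte list, with 47 cells without a UMI, Gata2 was 21.8 and 62.4 CPM, Meis1 36.8 and 85.8, Hlf 28.3 and 68.3, and Esam 4.44 and 45.9, while Flt3 was 96.2 and 47.5, Mzb1 106 and 22.9, and Notch1 48.9 and 18.1. Of the stem cell factors, Hoxa7 went the other way, with 75.2 and 51.7 CPM (ratio 0.688, 0.533 to 0.884). The interval for Hoxa9 included 1 (ratio 1.15, 0.912 to 1.44). The upper group by this list was shallower, with a median of 13131 UMIs against 17368.

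By the stem cell factor list, also added after the data had been seen, 132 cells lay within 10% of a dividing value. Procr had 0.00 and 2.70 CPM in the lower group of libraries 1 and 2 and 19.9 and 53.0 in the upper group. From lower to upper, Ly6a was 2.91 and 22.0 CPM, Emcn 7.47 and 50.5, Esam 5.4 and 55.4, Cdkn1c 12.04 and 87.3, and Kit 33.2 and 64.8. Irf8 was 136 and 24.2 CPM, Csf1r 35.3 and 6.59, Ccl3 172 and 39.0, Il7r 17.4 and 3.29, and Mpo 755 and 484. The cells of the upper group were shallower, with a median of 12323 UMIs against 17033. Procr, Ly6a, Emcn and Cdkn1c were thus higher in the group in which Kit was also higher.

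By the erythroid list, of which Car2 (carbonic anhydrase 2) supplied 453 of 804 CPM, the upper group contained all 45 globin-rich cells. It was also shallower than the lower group, with a median of 12419 against 17758 UMIs, and free RNA held the list at 8651 CPM. The part of depth and of free RNA in the differences was not tested. Hlf was 16.3 and 68.6 CPM from lower to upper (ratio 4.20, 2.93 to 6.15), and 5.61 times higher without the globin-rich cells. Hoxa9 was 40.005 and 112 CPM, Mycn 57.1 and 170, and Mpo 1015 and 409. Of the 140 cells of this upper group, 70 were also in the upper group by stem cell factors, 60 by the megakaryocyte list, 53 by the lymphoid list and 28 by the early granulocyte-monocyte list. Each upper group holds 140 of the 421 cells.

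**Figure D4:**
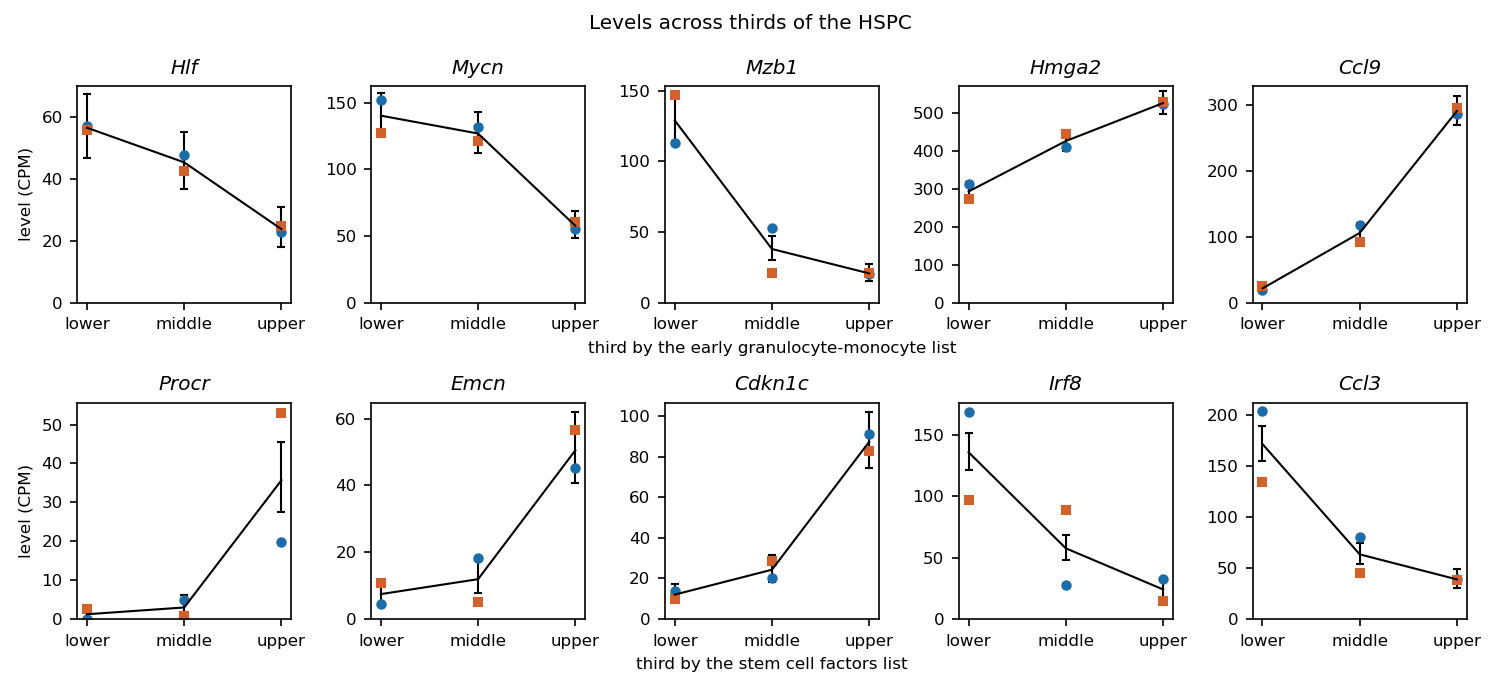
Levels (CPM) of genes outside the list in the lower, middle and upper HSPC group by the early granulocyte-monocyte list (top) and the stem cell factor list (bottom). Lines join both libraries summed, with exact Poisson 95% intervals, circles are library 1 and squares library 2. Hlf, Mycn and Mzb1 are lower and Hmga2 and Ccl9 higher at the upper end of the first list, and Procr, Emcn and Cdkn1c higher and Irf8 and Ccl3 lower at that of the second.

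UMIs of genes of different lineages were found in the same cells. Of the 153 cells with an Hlf UMI, 123 (80.4%) also had an Mpo UMI, beside 81.2% of all HSPC. An Mpo UMI was found in 19.5% of Ery and 63.8% of G. Of the 153, 71 (46.4%) had a Flt3 UMI, 34 (22.2%) a Klf1 UMI and 8 an Il7r UMI. Over all HSPC, 53.0% had a Flt3 UMI, 27.8% a Klf1 UMI, 11.2% an Il7r UMI and 12.4% a Rag2 UMI. Of the 47 cells with an Il7r UMI, 43 also had a Flt3 UMI, 15 a Rag2 UMI and none a Cpa3 UMI. All 58 cells with a Cpa3 UMI had an Mpo UMI, and 9 of them a Flt3 UMI. In Ery, which were deeper (median 22845.5 against 15462 UMIs), 3.54% of cells had a Cpa3 UMI, against 13.8% of HSPC. UMIs of Flt3, Il7r and Rag2 were found in 0.571, 0.171 and 0.286% of Ery. In G, with a median of 12715 UMIs, 27.5% of cells had a Cpa3 UMI. There, 2.79, 0.697 and 0.697% had one of Flt3, Il7r and Rag2. Free RNA held Cpa3 at 17.7 CPM in library 1, near its 25.2 CPM in HSPC, and at 3.06 CPM in library 2. Of the 58 cells, 36 were from library 1. These shares are unthinned and depend on the depth of each cell.

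Between the 2 libraries, the HSPC profiles were alike for most genes. Among 2864 genes that reached 50 CPM in 1 of the libraries, 27 were at least 2-fold higher in library 1 (0.943%) and 21 at least 2-fold lower (0.733%). Of these 48, 43 differed in the same direction by at least 2-fold in Ery as well. Highest in library 1 were Pgk1 (275 against 5.44 CPM), Gstp1 (147 against 3.84), Hmga1 (420 against 12.8), Hist1h2ap (386 against 12.48) and Gm10076 (1169 against 41.0). Their ratios in Ery were 27.9 to 45.4. Several have near-identical copies elsewhere in the genome, and their levels are uncertain. Highest in library 2 were Gm6133, Hba-x (23.8 against 188 CPM), Gm10036, Hbb-y (317 against 1394) and Rnaset2a. Hmga1, the fetal programme's relative of Hmga2, is given only per library. Without the 45 globin-rich cells, Hba-x (19.9 against 13.4 CPM) and Hbb-y (308 against 205) were instead higher in library 1. Of the embryonic globins Hba-x and Hbb-y, EryP held 57731 and 466791 CPM.

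**Figure D5:**
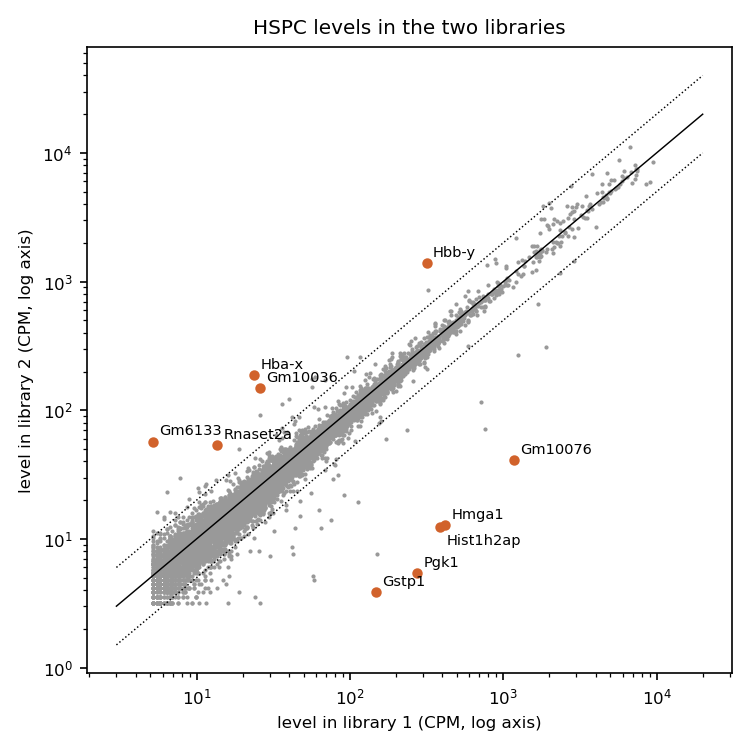
Level of each gene in HSPC of library 1 (x axis) and library 2 (y axis), both CPM on log axes, with genes under 5 CPM in library 1 or 3 in library 2 left out. The solid line marks equal levels and dotted lines a 2-fold difference. The 10 labelled genes lie outside them, and Pgk1 differed 50.5-fold.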

How the data were processed

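The 2 technical replicate libraries of 1 wild-type E12.5 liver were measured by droplet scRNA-seq. The authors deposited raw UMI counts per gene and barcode, not normalized, and a table of cell names and types. Their supplementary methods name cell sorting against debris and doublets, Cell Ranger 2.1.1, Seurat 3.2.0 and mm10 with a GRCm38 annotation. The submitters' processing notes also name bcl2fastq 2. The header of library 1 names version 3.0.0, and counts of genes with near-identical copies differ between the libraries.

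Barcodes were joined to the cell table, which held 5480 and 5057 cells, the numbers its filter left. Counts were summed per type and library and given as CPM. Genes needed 20 CPM over both libraries, in HSPC or in either type, and a 2-fold ratio in each library. A count of 0 was set to 3 counts. Free RNA came from barcodes with 1 to 50 UMIs. Named genes are list members, the first 20 leading genes, the 10 highest and lowest against Ery and G at 50 CPM or more, and 5 each way between the libraries. The population and lists were chosen with earlier results of these data known. Ahsp was not analysed here. Results for some further genes are not reported here. No doublet caller was run. The comparison and thinning were tested on simulated data. Positions are from GENCODE vM21. Alternatives covered libraries, thresholds, scaling, cell filters, free RNA and deep cells. Scripts ran in Python 3.11.15 with scipy 1.17.1, numpy 2.4.6, pandas 2.3.3 and, for plots, matplotlib 3.10.9.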

Additional observations from a re-analysis of the deposited data

Results flagged for a closer look

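Barcodes that were not called as cells were used in no comparison above. In library 2, 3311 uncalled barcodes had at least 1000 UMIs and 200 genes, and 97 of these (2.93%, exact binomial 95% confidence interval 2.38 to 3.56%) were most like the HSPC profile when each was matched by multinomial likelihood to the 9 cell types and free RNA of that library. They had a median of 1826 UMIs and at most 4308, whereas the kept HSPC of library 2 had at least 4601 and those of library 1 at least 1111. Because they were chosen by their likeness to HSPC, their levels describe the choice and do not show that they are HSPC. Cd34 had 229 CPM (167 to 306) in the 97 barcodes, 370 in the kept HSPC of library 2 and 34.2 in its free RNA. Myb had 137 CPM (90.4 to 200), against 108 in kept HSPC, and Mpo 1209 (1061 to 1373), against 725. Cd27 had 30.5 CPM (11.2 to 66.4, 6 UMIs) against 109 in kept HSPC, Kit 15.2 (3.14 to 44.5, 3 UMIs) against 47.0, and Hlf 15.2 (3.14 to 44.5, 3 UMIs) against 40.6, which its interval holds. In library 1, 0 of 168 uncalled barcodes matched HSPC, which allows a share of up to 1.79% by a limit of 3 counts and 2.17% by the exact binomial interval. The matching returned 203 of 213 and 196 of 208 kept HSPC to HSPC.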

How the results depend on the processing

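With 1 liver, no alternative was tested, and only the sizes of counts and values are compared. With a minimum of 50 CPM there were 20 leading genes, and the numbers higher and lower in HSPC were 380 and 254 against Ery, 114 and 219 against G, 204 and 330 against Mk, 167 and 357 against Mo/KC, and 269 and 499 against EC. With a minimum of 5 CPM they were 1772 higher against Ery, 694 and 548 against G, 779 and 1049 against Mk, 772 and 895 against Mo/KC, and 1461 lower against EC. The other counts at 5 CPM stayed within 1.5 times of those at 20 CPM. These were 43 leading genes, 552 lower against Ery and 656 higher against EC. With a fold of 3 there were 15 leading genes, 177 lower against Ery, 122 higher against G, 262 and 357 against Mk, 172 and 368 against Mo/KC, and 281 higher against EC. The other counts at this fold stayed within 1.5 times of those at 2-fold. These were 568 higher against Ery, 237 lower against G and 640 lower against EC. Leaving the globin genes out gave 25 leading genes and the stricter cell filter 20, with an HSPC share of 5.63%. Mean levels over cells gave 403 genes higher than in G. Each library alone gave 52 to 56 leading genes, 318 to 460 genes higher than in G, 537 to 721 than in Mo/KC and 709 to 940 than in EC. Shares of cells with a UMI depended on depth. Without thinning they were 72.2% for Myb, 94.8% for Cd34, 36.3% for Hlf, 70.3% for Runx1 and 48.9% for Kit, and 51.3, 88.9, 24.8, 46.7 and 30.1% after thinning to 7200 UMIs. Dividing HSPC into 4 groups instead of 3 gave an Hlf ratio of 2.45 in place of 1.69 by the lymphoid list and an Mpo ratio of 0.485 in place of 0.641 by the stem cell factor list. Of the values that answer a comparison, 120 of 166 stayed within 1.5 times, for counts of genes, or within the counting interval, for other values. With a minimum of 5 CPM, more genes were higher than lower against G, the opposite of the 265 higher and 351 lower at 20 CPM.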
